A study of Mus musculus with 6 samples.

Results

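Chemokines, their receptors, interleukins and colony-stimulating factors were read in cultured mouse dermal fibroblasts with and without stabilized β-catenin. The members were chosen by gene symbol. They are all Ccl, Cxcl, Ccr and Cxcr genes with a number, together with Cx3cl1, Ackr3, Il6, Il11, Il33, Il34, Il1a, Il1b, Il1rn, Lif, Tslp, Csf1, Csf2 and Csf3. This gave 66 of the 41126 genes in the table, of which 23 are CC chemokines, 13 CXC chemokines, 1 a CX3C chemokine, 17 receptors, 9 interleukins or related cytokines and 3 colony-stimulating factors. Of these, 33 passed the filter on low counts and were tested, and 33 did not pass it.

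Fibroblasts were grown from the ventral skin of postnatal day 4 pups on a mixed CD1 and C57Bl6 background. The age is that of the labels, and the study's text gives a range of ages that starts at day 4. According to that text, cells were passaged before infection. GOF (gain of function) cultures received an adenovirus carrying Cre, which removes exon 3 of 1 Ctnnb1 allele and leaves a β-catenin that escapes degradation, whereas Control cultures received an adenovirus carrying GFP. Each group holds 3 libraries, numbered 0 to 2. The labels call the controls wild type at Ctnnb1, and the study's text describes the same floxed allele in them, not recombined. The labels' treatment text names the Cre virus for every culture, although their source and genotype fields name GFP for the controls. Every culture had been infected. The labels give the same range of viral dose (multiplicity of infection 366 to 500) and a 6 h infection for all cultures. The study's text gives that range for the Cre virus and only its lower end for the GFP virus. The dose may therefore differ between the groups as well. The difference in virus, any difference in its dose and the change in β-catenin cannot be told apart. The 6 cultures came from 4 animals, and 2 animals are represented in both groups, the first by Control replicate 0 with GOF replicate 2 and the second by Control replicate 2 with GOF replicate 0. Axin2, a feedback target of β-catenin that checks the labels, read 0.144, 0.136 and 0.177 FPKM in the controls and 19.2, 14.4 and 18.7 FPKM in the GOF cultures. FPKM is the number of sequenced fragments of a gene scaled by the length of its transcript and by library size, so that levels of different genes can be set side by side.

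Chemokines are small secreted proteins that guide the movement of cells along a gradient. They are grouped by the spacing of their first cysteines into CC, CXC and CX3C families, and they act through G-protein-coupled receptors named after the same families. Dermal fibroblasts are a known source of chemokines and of interleukin-6 family cytokines in skin, where the chemokines recruit neutrophils, monocytes and eosinophils.

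The libraries held between 35980831 and 42834467 fragments, of which 24791 to 37226 fell on members. Csf1, the main growth factor of macrophages, was the member with the most fragments in every library, with 26.4 to 36.9% of the members' fragments in the controls and 48.8 to 61% in the GOF cultures. The share of Cxcl12 ran the other way, with 9.41, 21.8 and 31.2% in the controls and 3, 2.44 and 0.895% in the GOF cultures. Control replicate 0 stood apart from the other controls. Control replicate 0 was the highest control for 21 of the 33 tested members (63.6%, against 41.8% of all genes tested), and its summed level of 24 interferon-induced genes was 581 FPKM, against 191 FPKM in the lowest control and 164 to 175 FPKM in the GOF cultures. GOF replicate 1 was the highest GOF culture for 9 of the 33 tested members (27.3%, against 26.3% of all genes tested). It held the highest level of several CC chemokines. Values without these libraries are given beside the results they touch.

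Fragment counts were tested with edgeR's quasi-likelihood test, and a gene was called when its Benjamini-Hochberg adjusted p was under 0.05 over all 15462 genes tested and its fold change was over 2. SE is the standard error of a log2 fold change. Of the 66 members, 6 were called higher and 10 lower in GOF cultures, and 17 were tested and not called. Across all genes tested, 12.3% were called (6.69% higher and 5.64% lower). Among the members there were 6 higher and 7 lower calls with Control replicate 0 left out, without GOF replicate 1 there were 7 and 7, and without GOF replicate 0 there were 6 and 5. The median log2 fold change was -0.42 over the tested members and -0.02 over all genes tested. All 16 called members had FPKM values that did not overlap between the groups, and of the 33 tested members 8 lay wholly higher and 13 wholly lower in GOF cultures (20.3% and 19.2% of all genes tested, 39.5% in all). With 3 against 3 libraries the exact permutation test on FPKM cannot go below a two-sided p of 0.1, the value it gave for each called member. By class, of 19 tested chemokine genes 1 was called higher and 8 lower, of 6 tested receptors 2 were called higher and none lower (2 had an unadjusted p under 0.05 in edgeR), and of 7 tested interleukins and related cytokines 3 were called higher and 2 lower.

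**Figure D1:**
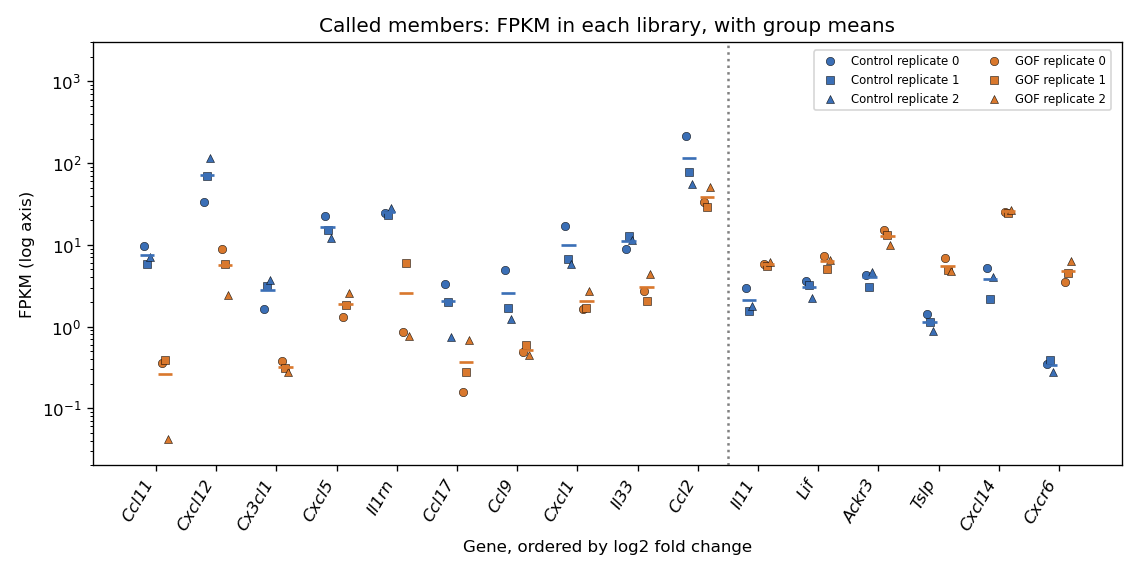
FPKM (log axis) of the 16 called members in each library, ordered by log2 fold change, with Control in blue, GOF in orange, a marker for each replicate number and a bar at each group mean. No called member overlaps between groups, and the spread among GOF cultures is widest for Ccl11 and Il1rn.

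**Figure D2:**
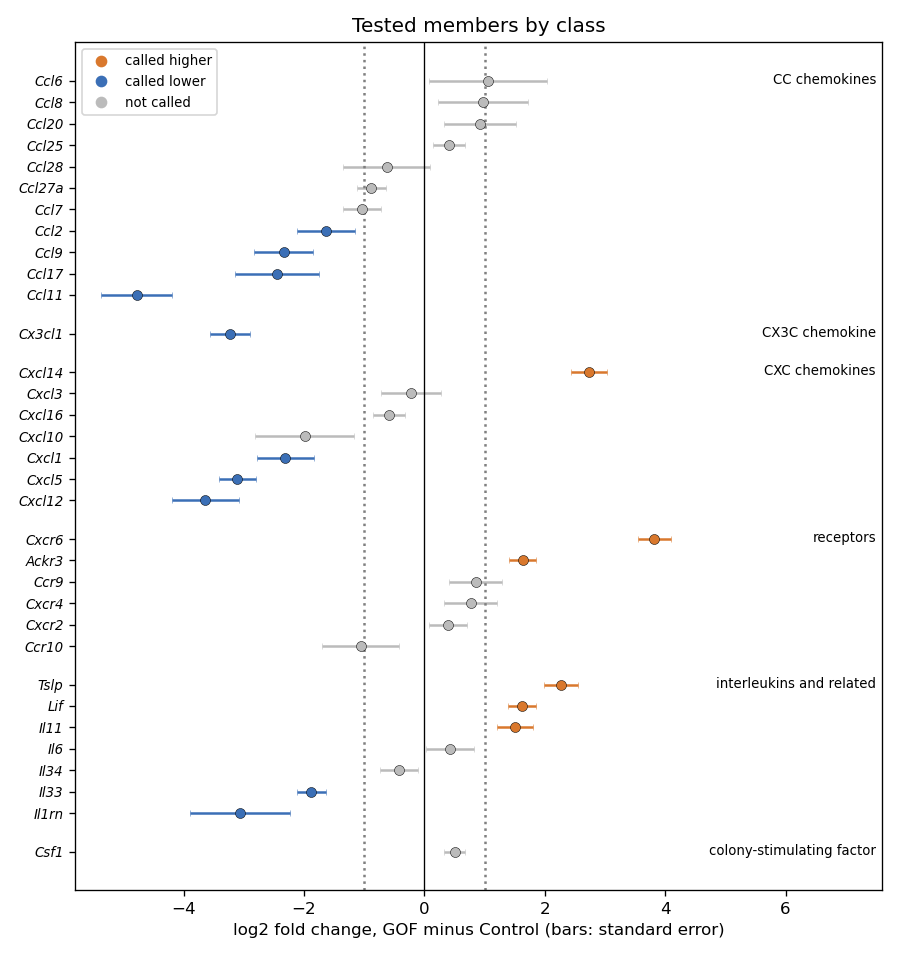
Log2 fold change (GOF minus Control) of the 33 tested members by class, with the standard error (SE) as a bar and dotted lines at a fold change of 2. CC and CXC chemokines lie mostly to the left of 0, and the called receptors, Cxcr6 and Ackr3, lie to the right.

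Among the members, the CXC chemokine genes Cxcl5, Cxcl3, Cxcl15, Cxcl1 and Cxcl2 lie together on mouse chromosome 5 from 90759360 to 90905938 (mm10). Cxcl1, Cxcl2, Cxcl3 and Cxcl5 attract neutrophils through CXCR2. The 120 bases before the start of 3 of them are printed because these neighbours have promoters of one kind. Cxcl1 was called lower, Cxcl3 was not called and Cxcl2 was too low to test. Whether their responses differed was not tested, and Cxcl5 had no promoter among the sequences used. The printed bases are taken from RefSeq on GRCm38.p6, the assembly also named mm10. Capitals mark, on either strand, each match to a form of the site bound by NF-κB, GGG and TTCC with any 3 bases between them.
Cxcl1, chr5:90891125-90891244, plus strand: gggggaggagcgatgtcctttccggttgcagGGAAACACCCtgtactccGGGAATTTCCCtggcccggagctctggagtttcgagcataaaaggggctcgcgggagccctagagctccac
Cxcl2, chr5:90903779-90903898, plus strand: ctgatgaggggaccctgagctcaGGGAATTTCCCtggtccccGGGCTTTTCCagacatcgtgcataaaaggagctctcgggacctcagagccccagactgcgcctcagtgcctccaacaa
Cxcl3, chr5:90785981-90786100, plus strand: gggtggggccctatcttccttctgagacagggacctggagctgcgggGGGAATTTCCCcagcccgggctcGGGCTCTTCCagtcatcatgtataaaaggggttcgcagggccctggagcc
Each promoter held the run GGGAATTTCCC, whose letters match the motif on both strands, between 61 and 71 bases before the start in Cxcl1, 87 and 97 in Cxcl2 and 63 and 73 in Cxcl3. Each also held a further match. The motif was found within 250 bases before the start of 12 of the 48 members with a promoter in the table (25%) and of 5.31% of 27025 genes. Among the called members, it was found for Ccl9, Cxcl1 and Il1rn of 7 lower members with a promoter and for 0 of 5 higher members. A match is a description of letters and not evidence of binding.

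Cxcl5 and Cxcl1 fell, while Cxcl3 was not called and Cxcl2 and Cxcl15 were too low to test. Cxcl5 read 22.4, 15.0 and 12.1 FPKM in the controls and 1.31, 1.82 and 2.60 FPKM in the GOF cultures, so that the lowest control lay far above the highest GOF culture. Its log2 fold change was -3.11 (SE 0.31, edgeR adjusted p = 8.61e-04) and ranged from -3.31 to -2.81 when single libraries were omitted. Cxcl1 read 17.2, 6.78 and 5.83 FPKM against 1.63, 1.69 and 2.76 FPKM, with Control replicate 0 well above the other controls. Its log2 fold change was -2.31 (SE 0.47, edgeR adjusted p = 0.0124). It was -1.63 without Control replicate 0, and its call was lost without GOF replicate 0 or GOF replicate 1 (highest adjusted p with a library left out 0.0626, edgeR). Cxcl3 lay at or under 0.69 FPKM in every library (log2 fold change -0.23, SE 0.50, edgeR adjusted p = 0.781), and its value turned to 0.39 without Control replicate 0. Cxcl2 had 6, 2 and 1 fragments in the controls and 6, 6 and 5 in the GOF cultures. Their receptor gene Cxcr2 stayed between 0.116 and 0.215 FPKM over the 6 libraries and was not called (log2 fold change 0.39, SE 0.32), and Cxcr1 had no fragment.

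Cxcl12 fell and Ackr3, 1 of its 2 receptor genes, rose, while Cxcr4, the other, was not called. CXCL12, made by stromal cells, holds and guides leukocytes and progenitor cells through CXCR4, while the atypical receptor ACKR3 binds and removes it. The 200 bases before the start of Cxcl12 are printed because it had the largest difference in FPKM among called CXC chemokines and because, of the 48 members with a promoter, it alone held CTTTGAT, a form of the site bound by the TCF and LEF partners of β-catenin (3.72% of genes held it within 250 bases before the start). Capitals mark that match, which reads ATCAAAG on this strand and lies 163 to 157 bases before the start.
Cxcl12, chr6:117168335-117168534, plus strand: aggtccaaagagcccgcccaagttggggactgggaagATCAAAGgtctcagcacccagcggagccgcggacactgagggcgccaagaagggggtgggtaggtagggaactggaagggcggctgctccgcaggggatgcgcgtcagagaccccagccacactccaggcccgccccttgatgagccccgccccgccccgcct
A further form, CTTTGAA, was found for 6 of the 48 members (12.5%, against 5.19% of genes), of which Ccl17 was called. These matches too are only descriptions of letters.

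Cxcl12, on chromosome 6 from 117168535 to 117181367, read 33.4, 68.9 and 114 FPKM in the controls and 8.82, 5.88 and 2.40 FPKM in the GOF cultures. The controls differed widely among themselves, and all lay above the GOF cultures. The log2 fold change was -3.64 (SE 0.56, edgeR adjusted p = 0.00427), and Cxcl12 was called in all 16 alternatives. In the animal that gave Control replicate 0 and GOF replicate 2 the control level was 13.9 times the GOF level, and in the animal that gave Control replicate 2 and GOF replicate 0 it was 12.9 times, so that the spread between animals did not show in the ratio within them. Ackr3 read 4.27, 3.02 and 4.68 FPKM in the controls and 15.1, 13.3 and 9.90 FPKM in the GOF cultures. It rose by 1.63 on the log2 scale (SE 0.23, edgeR adjusted p = 0.00303), and by 1.39 with the animal as a block. Cxcr4 lay far lower, at 0.225, 0.201 and 0.220 FPKM against 0.351, 0.608 and 0.188 FPKM, with overlap between the groups (log2 fold change 0.77, SE 0.44, edgeR adjusted p = 0.253). Dpp4, a cell-surface protease that cuts CXCL12 and other chemokines near their first residues, read 0.437, 0.644 and 0.560 FPKM in the controls and 30.3, 30.8 and 16.3 FPKM in the GOF cultures (log2 fold change 5.77, SE 0.39, edgeR adjusted p = 2.26e-04).

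Cxcl14 was the chemokine gene called higher. CXCL14 is a chemokine of skin and other epithelia whose receptor is not settled. Its levels were 5.14, 2.17 and 3.99 FPKM in the controls and 25.3, 24.5 and 27.0 FPKM in the GOF cultures, which sat close together. The log2 fold change was 2.74 (SE 0.30, edgeR adjusted p = 0.00112), between 2.46 and 3.05 over its 16 alternatives, all of which called it.

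Cxcr6 had the largest rise of the called members. It encodes the receptor for CXCL16 and is best known on T cells and natural killer T cells. Its levels were 0.346, 0.384 and 0.276 FPKM in the controls and 3.49, 4.54 and 6.39 FPKM in the GOF cultures. The log2 fold change was 3.82 (SE 0.27, edgeR adjusted p = 2.59e-04), at least 3.63 with each library left out. On chromosome 9 from 123806475 to 123811760, Cxcr6 overlaps Fyco1 on the opposite strand, and the sources used here do not say whether the counting used strand. Fyco1 read 5.20, 4.44 and 5.83 FPKM against 10.4, 9.51 and 9.05 FPKM (log2 fold change 0.90, edgeR adjusted p = 0.0044), and its part in the Cxcr6 value was not tested. The ligand Cxcl16 read 4.42, 2.58 and 2.75 FPKM in the controls and 2.04, 2.64 and 1.58 FPKM in the GOF cultures, and was not called (log2 fold change -0.59, SE 0.26, edgeR adjusted p = 0.147). Among the T cell markers only 1 of the list passed the filter, and the list summed to 0.946 to 1.71 FPKM in the controls and 0.941 to 1.72 FPKM in the GOF cultures.

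CC chemokine genes lie in a pair of groups on chromosome 11. The first runs from 82035571 to 82305690 in the order Ccl2, Ccl7, Ccl11, Ccl12, Ccl8 and Ccl1, and the second from 83525778 to 83664683 in the order Ccl5, Ccl9, Ccl6, Ccl3 and Ccl4. Levels within each group of genes ran over orders of magnitude. Ccl2, Ccl11 and Ccl9 fell, Ccl7, Ccl8 and Ccl6 were not called, and the other 5 were not tested.

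**Figure D3:**
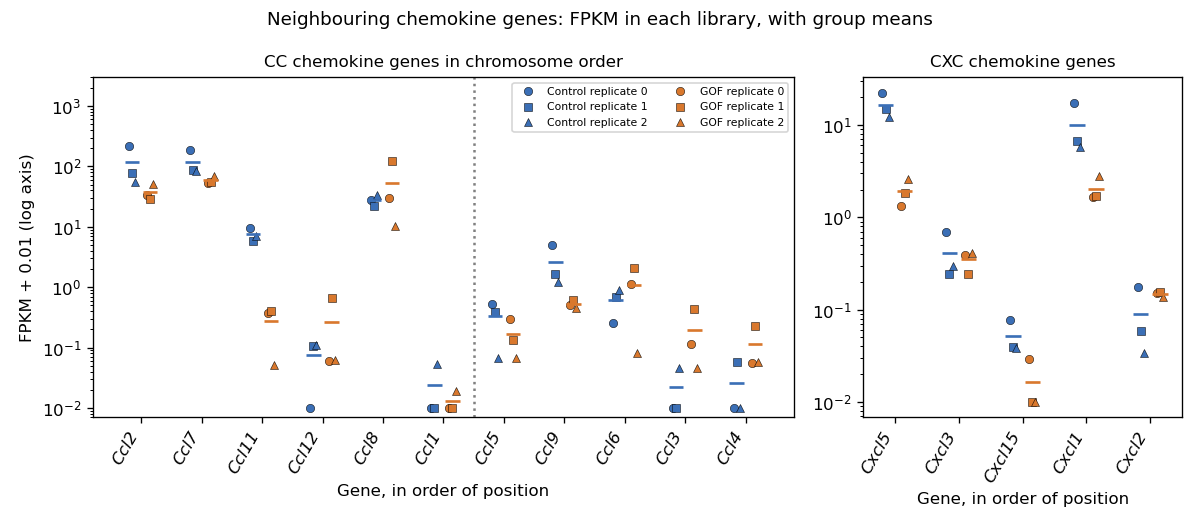
FPKM + 0.01 (log axis) of neighbouring chemokine genes in order of position, with the groups of CC genes divided by a dotted line, Control in blue, GOF in orange and a bar at each group mean. Ccl11 lies lower in every GOF culture while Ccl8 and Ccl12 have their highest value in GOF replicate 1 (square), and Ccl2, Ccl7, Ccl9, Cxcl5 and Cxcl1 have theirs in Control replicate 0 (blue circle).

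Ccl11 encodes eotaxin, which attracts eosinophils through CCR3. It read 9.73, 5.78 and 7.14 FPKM in the controls and 0.359, 0.388 and 0.0418 FPKM in the GOF cultures, from 305 to 434 fragments in the controls and 19, 21 and 2 in the GOF cultures. Its log2 fold change was the most negative of the members, -4.78 (SE 0.59, edgeR adjusted p = 0.00181), and lay between -5.22 and -4.26 with each library left out. Ccr3, the receptor gene, had no fragment in any library.

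Ccl2 and Ccl7 encode monocyte attractants that act through CCR2, and they had the highest levels of the chemokine genes in Control replicate 0. Ccl2 read 214, 78.7 and 55.9 FPKM in the controls and 33.8, 29.4 and 51.6 FPKM in the GOF cultures. The lowest control was little above the highest GOF culture. Its log2 fold change of -1.63 (SE 0.48, edgeR adjusted p = 0.048) was -0.85 without Control replicate 0, and Ccl2 was called in 7 of 16 alternatives. Of the fits that left out 1 library, only the one without Control replicate 2 kept the call (highest edgeR adjusted p 0.155). Ccl7 read 188, 87.0 and 85.0 FPKM against 52.3, 55.7 and 69.3 FPKM. It was just short of the threshold (log2 fold change -1.04, SE 0.31, edgeR adjusted p = 0.0516), it was called in 7 of 16 alternatives, among them the fit with the animal as a block (-1.11, adjusted p = 0.013, edgeR), and it was -0.56 without Control replicate 0. Within animals, the Control level of Ccl2 was 4.14 and 1.66 times the GOF level. Ccr2 had at most 1 fragment in any library.

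Ccl8 encodes another CC chemokine and had the largest standard deviation in FPKM among GOF cultures, 59.0 FPKM. It read 27.3, 22.1 and 33.6 FPKM in the controls and 30.4, 121 and 10.5 FPKM in the GOF cultures. Only GOF replicate 1 lay above the controls. The log2 fold change of 0.97 (SE 0.75, edgeR adjusted p = 0.399) turned to -0.45 without GOF replicate 1 and to -0.75 with the animal as a block. In the same library Ccl6 was highest among the 6, at 2.04 FPKM, against 1.14 and 0.0724 FPKM in the other GOF cultures and 0.241, 0.676 and 0.904 FPKM in the controls (log2 fold change 1.05, SE 0.98, edgeR adjusted p = 0.489). Ccl12 had 13 fragments there and at most 2 elsewhere, Ccl3 had 11 and at most 3, Ccl4 had 4 and at most 1, and Ccr1, a receptor of monocytes and macrophages, had 20 and at most 9. The 9 macrophage markers summed to 29.4 FPKM in this library, to 17.4 and 10.5 FPKM in GOF replicates 0 and 2 and to 13.4 to 23.6 FPKM in the controls, and none of them was at 0 in every library. Lyz2 was 17.3 FPKM and Cd68 2.58 FPKM there, against 16.9 and 1.72 FPKM in the highest controls. The pan-leukocyte gene Ptprc stayed at or under 0.0862 FPKM in all 6 libraries. Their part in the Ccl8 value was not tested. In such cultures fewer cells of a type and less RNA per cell cannot be told apart.

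Ccl9, in the second group of genes, read 4.90, 1.67 and 1.22 FPKM in the controls and 0.488, 0.595 and 0.448 FPKM in the GOF cultures. CCL9 is a mouse chemokine that acts through CCR1. The log2 fold change was -2.34 (SE 0.49, edgeR adjusted p = 0.0146), -1.67 without Control replicate 0, and its call was lost without GOF replicate 0 (adjusted p = 0.0698, edgeR).

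Cx3cl1 and Ccl17 are neighbours on chromosome 8, with Ccl22, which had no fragment, in a span from 94745590 to 94812036. Both fell. CX3CL1 (fractalkine) is a membrane-bound chemokine that holds monocytes and macrophages through CX3CR1. It read 1.65, 3.10 and 3.76 FPKM in the controls and 0.379, 0.314 and 0.277 FPKM in the GOF cultures, a log2 fold change of -3.23 (SE 0.34, edgeR adjusted p = 0.00105), and all 16 alternatives called it. CCL17 attracts CCR4-bearing T cells. It rested on few fragments, 56, 39 and 14 in the controls and 3, 5 and 13 in the GOF cultures, and read 3.36, 1.98 and 0.737 FPKM against 0.156, 0.276 and 0.680 FPKM. The lowest control and the highest GOF culture were close to each other. Its log2 fold change of -2.45 (SE 0.70, edgeR adjusted p = 0.0444) lost the call in 6 of 15 alternatives, among them those without Control replicate 0 or 1 and without GOF replicate 0 or 1 (highest edgeR adjusted p 0.145).

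The remaining tested chemokine genes were not called. Ccl27a, whose product attracts CCR10-bearing T cells to skin, read 12.1, 7.64 and 9.91 FPKM in the controls and 5.45, 4.74 and 5.93 FPKM in the GOF cultures. It passed the adjusted p but not the fold change (log2 fold change -0.88, SE 0.24, edgeR adjusted p = 0.0373), and it overlaps Il11ra1 on the opposite strand, a gene that fell (log2 fold change -1.41). Its near-identical copy Ccl27b had no fragment, so how reads were divided between them is uncertain. Cxcl10, an interferon-induced attractant of T cells, read 5.35, 0.826 and 1.14 FPKM against 0.841, 0.780 and 0.259 FPKM. Control replicate 0, the library with the highest interferon-induced genes, was far above the rest, and the log2 fold change of -1.99 (SE 0.82, edgeR adjusted p = 0.129) was -0.59 without it. The neighbouring Cxcl9 had 34 fragments in that library and 4 to 10 in the others. Ccl25, a gut and thymus chemokine that overlaps Elavl1 on the opposite strand, read 2.48, 1.56 and 2.20 FPKM against 2.60, 3.23 and 2.39 FPKM. Ccl20 and Ccl28 were at or under 1.01 FPKM in every library and their groups overlapped. Of the receptors of these ligands, Ccr9 lay at or under 0.116 FPKM and Ccr10 at or under 0.421 FPKM, both without a call, and Ccr6 had 1 fragment in GOF replicate 2 and none elsewhere.

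Interleukin-6 family cytokines signal through a shared receptor chain, encoded by Il6st, and a chain for each ligand. Il11 and Lif rose, and Il6 was not called. Il11 read 2.98, 1.56 and 1.76 FPKM in the controls and 5.79, 5.55 and 6.23 FPKM in the GOF cultures. Its log2 fold change was 1.50 (SE 0.30, edgeR adjusted p = 0.0125), and all 16 alternatives called it. Lif read 3.65, 3.23 and 2.23 FPKM against 7.24, 5.05 and 6.46 FPKM, a log2 fold change of 1.62 (SE 0.23, edgeR adjusted p = 0.00317). It was called in 15 of 16 alternatives. Il6 read 14.9, 7.79 and 6.28 FPKM in the controls and 10.8, 7.38 and 22.5 FPKM in the GOF cultures, with overlap between the groups (log2 fold change 0.42, SE 0.40, edgeR adjusted p = 0.503). Within animals the GOF level of Il6 was 1.51 and 1.73 times the Control level.

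Receptors of this family changed as well, from a list of 30 other chemokine and cytokine receptors. Il6st read 61.1, 90.8 and 96.2 FPKM in the controls and 33.5, 32.8 and 34.2 FPKM in the GOF cultures (log2 fold change -1.21, SE 0.20, edgeR adjusted p = 0.00551), and it was not called with the animal as a block (-0.99, adjusted p = 0.0106, edgeR). Il11ra1 read 124, 68.8 and 91.1 FPKM against 39.3, 49.5 and 36.1 FPKM (log2 fold change -1.41, edgeR adjusted p = 0.0122), and lost its call without GOF replicate 1 (adjusted p = 0.0508). Lifr, the chain for LIF, read 4.62, 6.86 and 7.94 FPKM against 12.5, 10.4 and 10.9 FPKM and passed the adjusted p but not the fold change (log2 fold change 0.75, edgeR adjusted p = 0.0446). Il11 and Il11ra1 thus moved in opposite directions, while Lif and Lifr both read higher in GOF cultures. Il6ra (log2 fold change -0.85, edgeR adjusted p = 0.0824) and Osmr (-0.32, edgeR adjusted p = 0.207), other receptor genes of the family, were not called. Of 24 genes of the list that were tested, 2 were called higher and 5 lower (29.2%, against 12.3% of all genes tested), with a median log2 fold change of -0.39. Csf1r was called higher and Cmklr1, the receptor for chemerin, lower (log2 fold change -2.91, edgeR adjusted p = 5.33e-04). Of 20 tested JAK-STAT3 components and feedback genes, Fos and Cebpd were called lower and none was called higher (9 had an unadjusted p under 0.05 in edgeR). The share called was 10%, against 12.3% of all genes tested. Cebpd lost its call without GOF replicate 0 or 1 (highest edgeR adjusted p 0.079), and 1 gene of the list was called higher without GOF replicate 2. The median log2 fold change of the list was -0.17. Other genes of the list passed the adjusted p but not the fold change. Jak2 (log2 fold change 0.93, edgeR adjusted p = 0.00102) and Ptpn11 (0.66, edgeR adjusted p = 0.0124) read higher, and Cebpb (-0.71, edgeR adjusted p = 0.0476) lower. Junb (-1.24, edgeR adjusted p = 0.0542) was called in 9 of 16 alternatives.

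**Figure D4:**
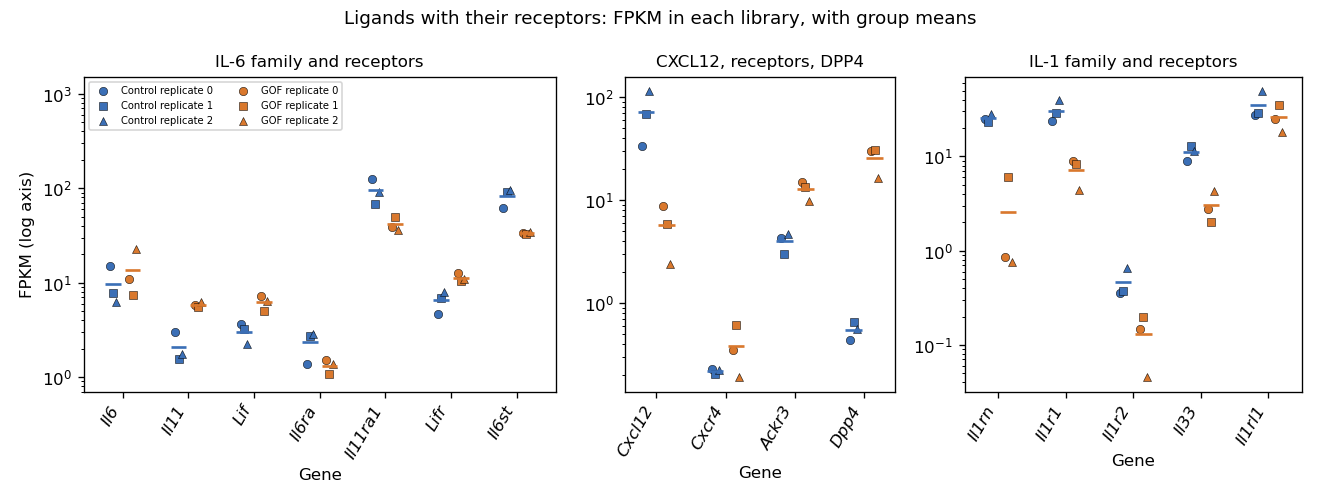
FPKM (log axes) of interleukin-6 family ligands and receptors, of Cxcl12 with its receptors and Dpp4, and of interleukin-1 family genes and receptors, with Control in blue, GOF in orange and a bar at each group mean. Il11 and Lif lie higher and Il6st and Il11ra1 lower in GOF cultures, and Cxcl12 and Ackr3 lie on opposite sides.

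Interleukin-1 family genes split by level. Il1b had no fragment and Il1a at most 5 in any library, whereas Il1rn, which encodes the antagonist of the interleukin-1 receptor, read 24.8, 23.2 and 28.3 FPKM in the controls and 0.859, 6.06 and 0.764 FPKM in the GOF cultures. GOF replicate 1 was well above the other GOF cultures and still lay below every control. The log2 fold change was -3.06 (SE 0.83, edgeR adjusted p = 0.0369), and -4.90 without GOF replicate 1. The call was lost without any 1 of the controls or without GOF replicate 0 (highest adjusted p 0.116, edgeR). Within animals, the Control level was 32.5 and 32.9 times the GOF level. Il33, an alarmin stored in the nucleus of stromal cells, read 9.01, 12.8 and 11.4 FPKM against 2.76, 2.04 and 4.34 FPKM. It fell by 1.88 on the log2 scale (SE 0.24, edgeR adjusted p = 0.0022), and all 16 alternatives called it. Il1r1, the signalling receptor for interleukin-1, read 23.5, 28.7 and 39.9 FPKM against 8.87, 8.36 and 4.38 FPKM (log2 fold change -2.08, SE 0.32, edgeR adjusted p = 0.00468). Il1r2, another interleukin-1 receptor gene, was also called lower (log2 fold change -1.83, SE 0.53, edgeR adjusted p = 0.0451). It rested on 21, 26 and 45 fragments against 10, 13 and 3. It was called in 7 of 15 alternatives, and each fit that left out 1 library lost the call. Il1rl1, the receptor for interleukin-33, read 27.4, 29.1 and 48.9 FPKM against 25.2, 34.8 and 18.1 FPKM and was not called. Il1rap, the chain that both receptors share, read 10.7, 12.2 and 14.5 FPKM against 7.34, 6.97 and 5.37 FPKM. It passed the adjusted p but not the fold change (log2 fold change -0.92, SE 0.20, edgeR adjusted p = 0.0171). It was called lower in 4 of 16 alternatives, among them the fit with the animal as a block (-1.06).

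Tslp, an interleukin-7-like cytokine of barrier tissues that acts on dendritic cells, rose. It read 1.43, 1.15 and 0.871 FPKM in the controls and 6.95, 4.90 and 4.76 FPKM in the GOF cultures, with a log2 fold change of 2.27 (SE 0.28, edgeR adjusted p = 0.0018). All 16 alternatives called it. Of the genes for its receptor chains, Crlf2 was not called and Il7r was too low to test. Tslp overlaps 4930455D15Rik on the opposite strand, as Ccl2 does Gm17268, and without a stated strand setting the reads of such genes cannot be told apart.

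Csf1 and Il34 encode the ligands of CSF1R, the receptor that keeps macrophages alive. Csf1 read 55.9, 66.6 and 73.0 FPKM in the controls and 97.3, 74.6 and 104 FPKM in the GOF cultures. The groups did not overlap, and the difference was not called (log2 fold change 0.50, SE 0.18, edgeR adjusted p = 0.0851). Within animals the GOF level was 1.86 and 1.33 times the Control level. Il34 read 1.97, 1.21 and 1.10 FPKM against 1.50, 1.26 and 1.04 FPKM (log2 fold change -0.42, SE 0.32, edgeR adjusted p = 0.393). Csf1r itself read 1.44, 1.05 and 1.46 FPKM in the controls and 3.49, 4.79 and 3.38 FPKM in the GOF cultures (log2 fold change 1.52, SE 0.19, edgeR adjusted p = 0.00186). It was the only called gene of the 6 tested macrophage markers. Csf3, the granulocyte growth factor, was not tested and had 0, 3 and 0 fragments in the controls and 13, 5 and 21 in the GOF cultures, while Csf2 had 2 to 6 fragments in every library.

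**Figure D5:**
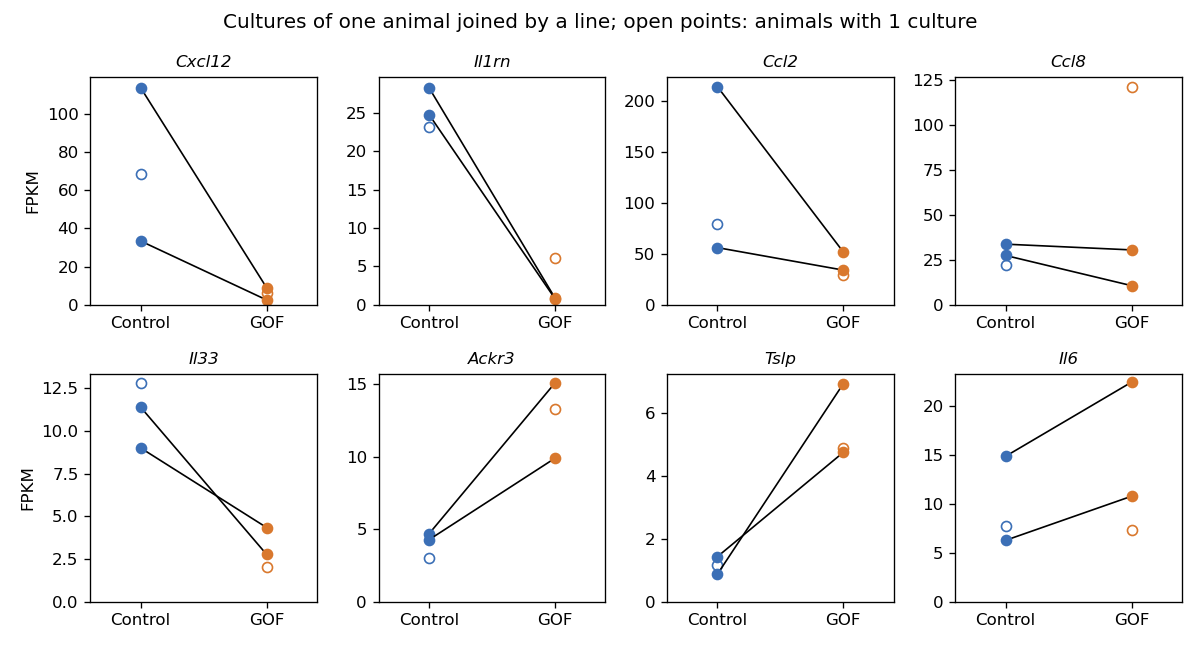
FPKM of 8 members in Control and GOF cultures on linear axes, with the cultures of 1 animal joined by a line and open points for animals with 1 culture. Cxcl12, Il1rn, Ccl2 and Il33 go down and Ackr3, Tslp and Il6 go up in both animals, and the high Ccl8 value belongs to an animal with no Control culture.

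All 16 called members had the same direction in both animals that gave a culture to each group. This follows from their lack of overlap between the groups and adds no further evidence. All 16 were also called when the same libraries were fitted with the animal as a block. That fit has 1 residual degree of freedom.

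The 33 members that were not tested were low throughout. Of these, 10 had no fragment in any library (Ccl21b, Ccl22, Ccl26, Ccl27b, Cxcl17, Il1b, Ccr3, Ccr8, Cxcr1 and Cxcr3), and 21, these included, had at most 3 fragments in each library. A count of 0 allows up to 3 fragments, by counting error alone. The highest count among untested members was the 34 fragments of Cxcl9 in Control replicate 0, and the highest level the 0.651 FPKM of Ccl12 in GOF replicate 1. Of the 17 receptor genes, 11 were not tested, among them all the leukocyte receptors Ccr1 to Ccr8, and Ackr3 and Cxcr6 were the receptor genes with a mean over 1 FPKM in a group. The summed level of the CC chemokine genes was 463, 208 and 197 FPKM in the controls and 128, 220 and 142 FPKM in the GOF cultures, with overlap between the groups. That of the receptor genes, mostly Ackr3 and Cxcr6, was 4.23 to 6.04 FPKM in the controls and 17.3 to 19.8 FPKM in the GOF cultures, while that of the CXC chemokine genes, Cxcl12 foremost in the controls and Cxcl14 in the GOF cultures, was 89.1 to 140 FPKM against 37.2 to 40.6 FPKM.

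Other genes of the pathways were read from lists, beside the 12.3% of all genes tested that were called. The share called was 8.7% for the NF-κB list and 8.33% for the other interleukins and related cytokines, both under that background. It was 43.5% for the interferon-induced genes and 23.1% for the proteins that act on chemokines. Of 23 tested NF-κB subunits, regulators and targets outside the members, Ptgs2 (log2 fold change 3.40, edgeR adjusted p = 2.76e-04) and Tnfaip3 (log2 fold change 1.87, edgeR adjusted p = 0.00196) were called higher and none lower (9 had an unadjusted p under 0.05), with a median of 0.12, and Icam1 was also called higher with the animal as a block. With Control replicate 0 left out, 1 gene of the list was called lower. Ptgs2 makes prostaglandins and Tnfaip3 is a feedback inhibitor of NF-κB. Of 12 tested interleukins and related cytokines outside the members, Il18 was called lower (in 10 of 16 alternatives, and not without Control replicates 0 or 2 or GOF replicates 0 or 1), none was called higher (3 had an unadjusted p under 0.05 in edgeR), and the median was 0.03. The fit without Control replicate 0 called 1 of them higher. This was Ppbp, a chemokine gene whose symbol the member rule does not match. It read 0.966, 0.519 and 0.36 FPKM in the controls and 1.21, 1.18 and 2.03 FPKM in the GOF cultures, without overlap. Its log2 fold change was 1.24 (SE 0.42, edgeR adjusted p = 0.0775), and it was called in 3 of 16 alternatives. Of 23 tested interferon-induced genes, 10 were called lower and none higher (18 had an unadjusted p under 0.05 in edgeR), with a median of -1.58. Their summed level was 581, 191 and 287 FPKM in the controls and 171, 175 and 164 FPKM in the GOF cultures. Without Control replicate 0 the median was -0.84 and 10 were called lower. The count was 16 with the animal as a block or without Control replicate 1, 4 without GOF replicate 0, 4 without GOF replicate 1, 5 without GOF replicate 2, 5 with limma on log2(FPKM + 1) and 13 with DESeq2. Stat2 and Gbp3 were among them, with log2 fold changes of -1.65 and -2.58. Of 13 tested proteases and glycosaminoglycan carriers that act on chemokines, Dpp4, Mmp3 and Sdc2 were called higher and none lower (6 had an unadjusted p under 0.05 in edgeR). Sdc2 lost its call without GOF replicate 2, and Mmp2 was called lower with the animal as a block (log2 fold change -1.06, edgeR adjusted p = 0.0045). With Control replicate 0 left out, 1 gene of this list was called lower. Mmp3, which cuts several CC chemokines, read 2.31, 6.62 and 7.81 FPKM against 60.8, 192 and 22.0 FPKM. Markers of neutrophils, mast cells and keratinocytes summed to under 1 FPKM in every library, and the dermal fibroblast markers to 2401 to 3190 FPKM in the controls and 1099 to 1952 FPKM in the GOF cultures. Of 9 tested dermal fibroblast markers, 2 were called lower and none higher (3 lower with the animal as a block), with a median log2 fold change of -0.70. Both tested markers of dendritic cells were called higher, 1 of them also with the animal as a block (summed list 0.699 to 0.918 FPKM against 1.65 to 2.7 FPKM, with Cd207 at 0), 1 of 2 tested skeletal muscle markers was called higher (23.3 to 27.6 against 138 to 173 FPKM), and 1 of 4 tested melanocyte markers was called lower (3.51 to 7.9 against 1.21 to 2.47 FPKM). The 1 tested adipocyte marker was called lower (7.18 to 8.95 against 1.8 to 3.17 FPKM), and of 5 tested endothelial markers 1 was called higher and 1 lower (4.43 to 4.61 against 2.73 to 6.65 FPKM). The pan-leukocyte list summed to 1.51 to 1.62 FPKM against 0.556 to 1.12 FPKM with none of 5 tested genes called (1 had an unadjusted p under 0.05 in edgeR), and the list of pericyte or smooth muscle markers, with none of 7 called (1 had an unadjusted p under 0.05), to 15.5 to 25.9 against 18.2 to 34.9 FPKM. The part of these cells in the members' values was not tested.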

How the data were processed

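RNA-seq libraries of 3 Control and 3 GOF cultures were analysed. The authors mapped paired-end reads of stranded libraries to mm10 with TopHat and ran Cuffdiff. Standard Cuffdiff settings are stated in the paper. Tool versions, the annotation release and the strand setting of the counting are not given in the sources used here. The deposited estimated counts are the unscaled fragments per gene and library from the authors' Cuffdiff output. The deposited FPKM values are the authors' fragments scaled by transcript length and library. A further 2 columns of per-library values in the all-gene table and the lncRNA table were not used. Of the genes, 32 with a failed estimate were left out, none of them a member. Identifiers of 97.9% of genes matched the GENCODE annotation on GRCm38.

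Estimated counts (4.95% not whole) were rounded and tested in R 4.3.3 with edgeR 4.0.16 (TMM, filterByExpr, quasi-likelihood test, Benjamini-Hochberg adjustment over all genes tested). Exact permutation tests used scipy 1.17.1. The script was tested on simulated data. Libraries of one animal deviated together (r = 0.485 and 0.368 across 15462 genes), and libraries of one label number did not (r = -0.424, 0.0523 and -0.401), so the animal is the block given beside results. Deviations were taken from the mean of the 3 libraries of each group, so these correlations are not independent of each other. Cultures were grown separately for each animal. Alternatives were DESeq2 1.42.0, library totals, upper-quartile normalization, no filter, a minimum FPKM of 1 in 3 libraries, limma 3.58.1 on log2(FPKM + 1) and log2(FPKM + 0.1), replicate blocks, and each library left out.

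The members and lists were chosen with earlier results of these data known. Members that were called or averaged at least 1 FPKM in a group are given in every library, and of each further list up to 3 called genes with the smallest adjusted p are named, beside receptors of the named ligands, which were chosen after their values were seen. A gene chosen by this rule is left out here. Counting limits cover counting error only.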

Additional observations from a re-analysis of the deposited data

How the results depend on the processing

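The count of members called higher was 5 to 7 over its alternatives, against 6, and that of members called lower 7 to 12 with all libraries kept, against 10. With each library left out, the counts were 6 to 7 higher and 5 to 10 lower, and the lowest, 5, was without GOF replicate 0. With a replicate block by label number 6 were called higher and 8 lower, and with a replicate block by animal 6 and 11, or 6 and 11 with the animal as a correlation (0.476). The further lists gave 6 to 9 genes higher and 12 to 22 lower, against 7 and 18. Of 518 alternatives of single members, 478 kept direction and side of the threshold, 24 lost the call, 8 gained it and 8 changed sign, all of members that were not called. The changes of sign were Ccl6 with the animal as a block (-0.09) or correlation (-0.16) and without GOF replicate 1 (-0.02, and up to 1.61 without another library), Ccl8 with the animal as a block (-0.75) or correlation (-0.12) and without GOF replicate 1 (-0.45, up to 1.46), Cxcl3 without Control replicate 0 (0.39, down to -0.52), and Il6 without GOF replicate 2 (-0.00, up to 0.88). Apart from the alternatives' own construction (fewer libraries or genes), the cause was not tested. For single lists, the replicate blocks and the fits without 1 library were chosen after seeing the data.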
